A study of Homo sapiens with 24 samples.

Results

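The response of HepG2 cells to interferon gamma (IFNγ) was measured in 6 of the 24 RNA-seq libraries of the series, 3 from cells given IFNγ alone and 3 from cells given the vehicle DMSO. HepG2 is a human hepatocellular carcinoma line that keeps many hepatocyte genes active, and every library of the series came from it. The libraries were chosen by their titles alone, so no measured value decided which of them entered the comparison. The other 18 libraries held 3 each of cells given ABBV-075 at 50 nM or ABBV-744 at either 50 or 500 nM, each with and without IFNγ, where both compounds are inhibitors of the BET family of acetyl-lysine readers. The dose of IFNγ and the length of the treatment are not given in the sources used here. No label says whether the 3 samples of a group came from separate cultures. The study's methods call the samples of its DMSO and BET inhibitor experiment independent but do not describe the IFNγ libraries, so the p-values measure the spread between these samples, which may be technical.

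IFNγ is a cytokine made mainly by T cells and natural killer cells. It binds a receptor of the IFNGR1 and IFNGR2 chains, the receptor-bound kinases JAK1 and JAK2 become active, and the signal reaches palindromic DNA elements called GAS. IRF1, a transcription factor made in this first step, and complexes that hold STAT2 and IRF9 then act on a second kind of element, the ISRE. In liver cells the response is known for antigen presentation, for intracellular defence against viruses and bacteria, and for restraint of its own signal through SOCS1.

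The promoters of 6 strongly upregulated genes are printed because they hold matches to these elements. They are the 250 bases before the RefSeq transcription start on GRCh38.p14, read 5′ to 3′ on the strand of the gene, with matches in capitals. GAS was searched as TTCNNNGAA and ISRE as GAAANNGAAA or its reverse complement, where N is any base, on both strands.
IRF1, chr5:132490774-132491023, minus strand: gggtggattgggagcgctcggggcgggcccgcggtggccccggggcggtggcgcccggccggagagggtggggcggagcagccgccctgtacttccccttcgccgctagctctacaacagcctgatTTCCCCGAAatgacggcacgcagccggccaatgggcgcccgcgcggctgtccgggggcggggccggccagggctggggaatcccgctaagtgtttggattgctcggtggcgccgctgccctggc
EPSTI1, chr13:42992242-42992491, minus strand: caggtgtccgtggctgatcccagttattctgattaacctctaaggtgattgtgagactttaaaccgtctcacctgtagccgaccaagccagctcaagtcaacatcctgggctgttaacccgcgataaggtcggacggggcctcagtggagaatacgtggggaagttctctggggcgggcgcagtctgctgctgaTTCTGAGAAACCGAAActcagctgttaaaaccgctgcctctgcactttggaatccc
IFITM1, chr11:313790-314039, plus strand: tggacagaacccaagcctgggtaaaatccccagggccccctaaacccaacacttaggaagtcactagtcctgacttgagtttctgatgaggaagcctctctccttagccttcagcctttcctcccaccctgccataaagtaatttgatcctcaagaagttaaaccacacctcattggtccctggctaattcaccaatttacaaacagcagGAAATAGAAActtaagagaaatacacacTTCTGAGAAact
TAP1, chr6:32853705-32853954, minus strand: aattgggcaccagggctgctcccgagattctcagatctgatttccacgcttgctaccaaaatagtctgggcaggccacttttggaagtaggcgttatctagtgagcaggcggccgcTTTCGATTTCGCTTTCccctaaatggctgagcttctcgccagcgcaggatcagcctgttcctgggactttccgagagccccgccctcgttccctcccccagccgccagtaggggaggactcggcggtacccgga
GBP1, chr1:89065209-89065458, minus strand: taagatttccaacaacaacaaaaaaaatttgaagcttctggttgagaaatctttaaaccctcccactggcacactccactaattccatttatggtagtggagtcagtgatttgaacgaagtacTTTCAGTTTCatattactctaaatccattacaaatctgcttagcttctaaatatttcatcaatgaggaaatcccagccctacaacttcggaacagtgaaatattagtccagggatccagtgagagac
WARS, chr14:100375348-100375597, minus strand: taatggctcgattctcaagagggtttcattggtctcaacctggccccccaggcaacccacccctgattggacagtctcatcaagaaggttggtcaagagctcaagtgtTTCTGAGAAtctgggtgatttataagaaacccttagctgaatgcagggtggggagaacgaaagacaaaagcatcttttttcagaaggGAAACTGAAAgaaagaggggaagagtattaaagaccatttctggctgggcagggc
The IRF1 promoter held 1 GAS match, which began 124 bases before the start, and no ISRE match. The TAP1 promoter held 2 overlapping ISRE matches from 134 bases before the start, and the GBP1 promoter held 1 from 127 bases before it. In EPSTI1 the GAS match, which began 56 bases before the start, and the ISRE match, which began 50 bases before it, shared 3 bases. IFITM1 and WARS each held a match to both elements. Over the whole windows of 300 bases, which also hold the 50 bases after the start, 62 of the 92 genes upregulated past both thresholds below had an entry in the reference table. At least 1 window held a GAS match for 19 of these genes (30.6%) and an ISRE match for 35 (56.5%), beside 8.47% and 3.67% of the 8962 tested genes with an entry. Windows per gene averaged 1.45 in both sets, and 7.66% of all 35116 windows of the table held GAS and 3.57% held ISRE. ETV7, GBP5, OAS2, HLA-E, NLRC5, APOL4 and GBP2 had no entry.

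Reads counted on genes numbered 3461565 to 3718686 in the IFNγ libraries and 3706857 to 4304103 in the DMSO libraries, which was 13.2% to 16.8% of the reads. Reads that mapped to several places, which the counting leaves out, were 58.3% to 66.4% of the reads with IFNγ and 56.0% to 61.0% with DMSO, so genes with close copies, HLA genes among them, were counted from only a part of their reads. The first principal component of the log2 CPM, counts scaled to 1000000 reads on genes, held 48.4% of the variance and separated the 2 groups. The hepatocyte markers were present in both groups, with ALB, albumin, at 2684, 3236 and 3314 CPM in the DMSO and 3308, 2895 and 2428 CPM in the IFNγ libraries, a log2 fold change of -0.10 (adjusted p = 0.631, edgeR). Of the markers of other cells, 10 of 18 for leukocytes, 7 of 10 for stellate cells and fibroblasts and 4 of 10 for endothelium had no count in any of the 6 libraries, with PTPRC, CD3E, COL1A1 and KDR among them. The summed level of the stellate list was 23.8 to 25.3 CPM with DMSO and 24.4 to 28.5 CPM with IFNγ, and that of the endothelial list 7.61 to 9.62 and 6.81 to 9.87 CPM. The leukocyte list summed to 1669 to 1783 and 1632 to 1862 CPM, almost all of it LYZ, lysozyme, at 1717 and 1743 CPM. As these are bulk samples, more cells that express a gene and more RNA per cell cannot be told apart.

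The 3 markers of the treatment separated the groups. IRF1 stood at 13.7, 10.97 and 11.5 CPM in the DMSO libraries and at 210.8, 226.7 and 254.4 CPM in the IFNγ libraries, a log2 fold change of 4.26 ± 0.12 (SE; adjusted p = 4.53e-27). TAP1, a subunit of the transporter that carries peptides into the endoplasmic reticulum, stood at 67.6, 62.2 and 64.4 CPM and then at 692.2, 699.3 and 725.0 CPM. PSMB9, a catalytic subunit of the immunoproteasome, went from 8.08, 6.49 and 6.01 CPM to 140.1, 153.6 and 167.2 CPM. In each of the 3 genes all IFNγ libraries lay above all DMSO libraries, which gives p = 0.1 in an exact two-sided permutation test, the smallest that 3 against 3 allows.

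Of 11217 genes tested with edgeR's quasi-likelihood test, 92 were upregulated (0.82%) and 3 downregulated (0.0267%) where both thresholds had to be met, 1.5 for the size of the log2 fold change and 0.05 for the Benjamini-Hochberg adjusted p. With the adjusted p alone, 310 genes rose (2.76%) and 78 fell (0.695%), so 79.9% of these changes were increases. Leaving out 1 library at a time moved the 78 to between 34, without DMSO replicate 3, and 148, without IFNγ replicate 1. The median log2 fold change was 2.79 over the 92 genes, 0.88 over the 310, -0.46 over the 78 and -0.002 over all genes tested. In all of the 92 genes every IFNγ library lay above every DMSO library, an order held by 9.82% of all genes tested, and in all 3 downregulated genes every IFNγ library lay below, an order held by 8.91%. The thresholds that picked these genes were applied to the same 6 libraries and favour such an order, so it is not a separate result. The 92 genes held 0.158% to 0.167% of the reads on genes in the DMSO libraries and 1.04% to 1.08% in the IFNγ libraries. Scaling by library size alone left 84 and 3 genes past both thresholds and gave 250 increases and 204 decreases by adjusted p, or 55.1% increases, so the count of small decreases depends on the scaling. The 3 genes just above the fold threshold were CSF1 at a log2 fold change of 1.501, OAS1 at 1.507 and IFIT1 at 1.508, and the 3 just below it were PRRG4 at 1.494, APOBEC3F at 1.470 and HLA-B at 1.469.

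**Figure D1:**
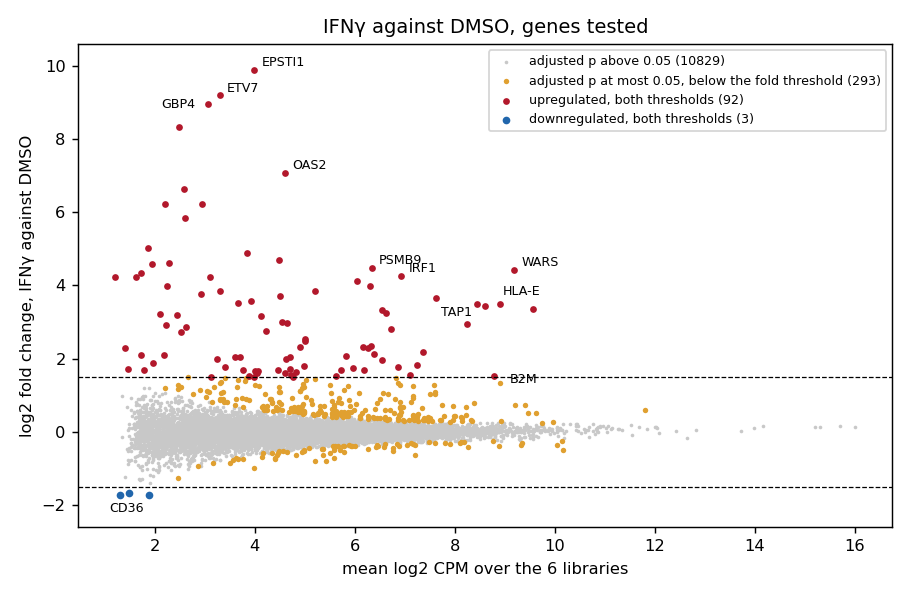
Each point is 1 of the 11217 genes tested, with the mean log2 CPM over the 6 libraries on the x axis and the log2 fold change of IFNγ against DMSO on the y axis, and dashed lines mark 1.5 and -1.5. The 92 upregulated genes reach much farther from 0 than the 3 downregulated ones, which lie just past the lower line at low levels.

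The 10 largest increases by the fit were in EPSTI1, ETV7, GBP4, GBP5, OAS2, IFITM1, IFI27, RARRES3, APOL4 and TCAF2. The first 4 had no count in any DMSO library, so their fitted fold changes are not bounds, and they were set against a floor of 3 counts in each DMSO library. EPSTI1, an interferon-inducible gene first described in epithelial cells in contact with stroma, had 123, 106 and 100 reads in the IFNγ libraries, or 33.7, 31.4 and 28.2 CPM, at least 42.4-fold higher than the floor. ETV7, a transcription factor of the ETS family, had 68, 69 and 65 reads and was at least 26.1-fold higher. GBP4 and GBP5, large GTPases that gather on membranes of pathogens, were at least 22.1-fold and 14.3-fold higher. The adjusted p of these 4 genes lay between 4.43e-18 and 1.80e-11 (edgeR). OAS2, which makes the 2′-5′ oligoadenylates that activate RNase L, had 0, 2 and 2 reads with DMSO and 171, 168 and 168 with IFNγ, a log2 fold change of 7.07 ± 0.30 (SE). IFITM1, a membrane protein that hinders virus entry, had 0, 1 and 0 reads with DMSO and 50, 37 and 32 with IFNγ, a ratio of 138.9 with a 95% counting interval of 24.4 to 5531. The other 4 genes had 1 or 2 reads over the 3 DMSO libraries, and the lower ends of their intervals were 24.3-fold for IFI27, 18.2-fold for RARRES3, 18.8-fold for APOL4 and 10.4-fold for TCAF2. The intervals cover counting error only. All 10 genes were apart in every library, but the rule that named them required this, so it is not a separate result.

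**Figure D2:**
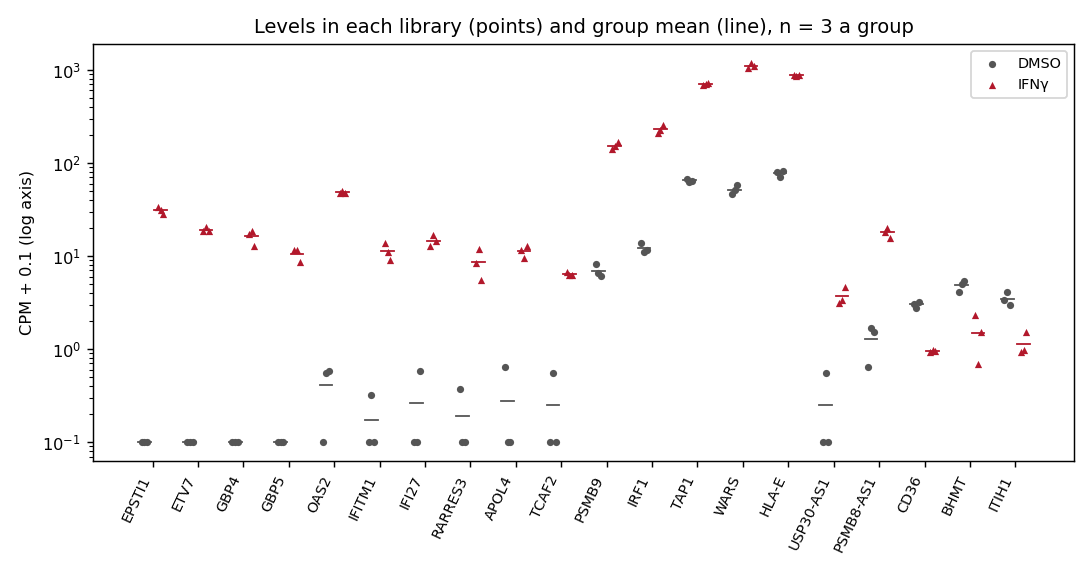
Each point is the level of a gene in 1 library as CPM + 0.1 on a log axis, with DMSO as grey circles, IFNγ as red triangles and a line for the mean of 3 libraries. Genes at the bottom edge, at 0.1, had no read there. In all 20 genes the groups do not overlap, which the naming rule required of all but PSMB9, IRF1, TAP1, WARS and HLA-E. CD36, BHMT and ITIH1 have the opposite order.

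Signalling genes responded in part. Of 14 tested members of the receptor and JAK-STAT list 4 rose, and the list median was 0.06. STAT2 rose by 1.76 ± 0.10, the feedback inhibitor SOCS1 by 1.53 ± 0.20 and STAT3 by 0.70 ± 0.07 on the log2 scale. The receptor chain IFNGR1 stood at 81.6, 91.6 and 88.9 CPM in the DMSO and 74.8, 77.5 and 64.9 CPM in the IFNγ libraries, a log2 difference of -0.27 with an adjusted p of 0.157. JAK2 had a log2 fold change of 0.70 with an adjusted p of 0.209. The interferon regulatory factor list also holds ETV7 and BATF2, which belong to other families. Among its 9 tested members 4 rose, all of them past both thresholds. Beside IRF1 and ETV7 these were BATF2, a partner of IRF1 in macrophages, at 4.11 ± 0.15 and IRF9, the DNA-binding part of the ISRE complex, at 3.25 ± 0.11.

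Genes of class I antigen presentation rose, from peptide supply to the heavy chains. Of 17 tested members of the class I and peptide loading list 12 rose, 6 of them past both thresholds, with a median log2 fold change of 1.33. HLA-E, the non-classical molecule read by natural killer cells, went from 80.2, 70.3 and 80.8 CPM to 886.6, 850.3 and 878.4 CPM, a log2 fold change of 3.50 ± 0.08. Classical heavy chains had smaller log2 fold changes, with HLA-B at 1.47 ± 0.09 and HLA-C at 1.09 ± 0.08, and B2M, the shared light chain, at 1.33 ± 0.07. The HLA genes share sequence with one another, and their values are uncertain to the extent that reads between them were dropped or misplaced. NLRC5, the transactivator of class I genes, went from 12.6, 8.29 and 7.45 CPM to 138.7, 141.8 and 163.6 CPM and rose by 3.98 ± 0.14 on the log2 scale. TAP2, the partner of TAP1, rose by 2.18 ± 0.09, the loading factor TAPBP by 1.53 ± 0.13, and the trimming peptidases ERAP2 and ERAP1 by 2.08 ± 0.13 and 1.07 ± 0.10. The folding helpers CALR, CANX and PDIA3 stood at 0.20, 0.03 and 0.29 on the log2 scale with adjusted p-values of 0.0579, 0.907 and 0.0665.

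All 5 genes of the immunoproteasome list rose, with a median log2 fold change of 2.33. They were PSMB9 at 4.49 ± 0.14, PSMB8 at 2.48 ± 0.15, PSMB10 at 2.33 ± 0.12 and the activator subunits PSME2 at 1.52 ± 0.07 and PSME1 at 1.32 ± 0.09. The 17 genes of the constitutive proteasome list had a median of 0.23, and 6 of them rose, none past both thresholds and the largest PSMA6 at 0.52 ± 0.06. Scaling by library size alone, or leaving out the library DMSO replicate 3, lowered these 6 to 3. Levels were also set side by side per kilobase of the longest annotated transcript, since PSMB9, PSMB10 and PSMB8 take the places of PSMB6, PSMB7 and PSMB5 in newly built proteasomes. At the β1 place the ratio of PSMB9 to PSMB6 was 0.0164 to 0.0200 over the DMSO libraries and 0.370 to 0.412 over the IFNγ libraries. At the β2 place the ratio of PSMB10 to PSMB7 went from 0.155 to 0.176 up to 0.650 to 0.839. At the β5 place that of PSMB8 to PSMB5 went from 0.00664 to 0.00738 up to 0.0359 to 0.0392, so by these lengths it stayed lowest there. The ratios and their order across the places depend on the transcript lengths used, but the change of each ratio with IFNγ does not. The PSMB9, PSMB10 and PSMB8 levels rose, while PSMB6, PSMB7 and PSMB5 stood at 0.10, 0.09 and 0.07 on the log2 scale with adjusted p-values of 0.673, 0.680 and 0.724.

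**Figure D3:**
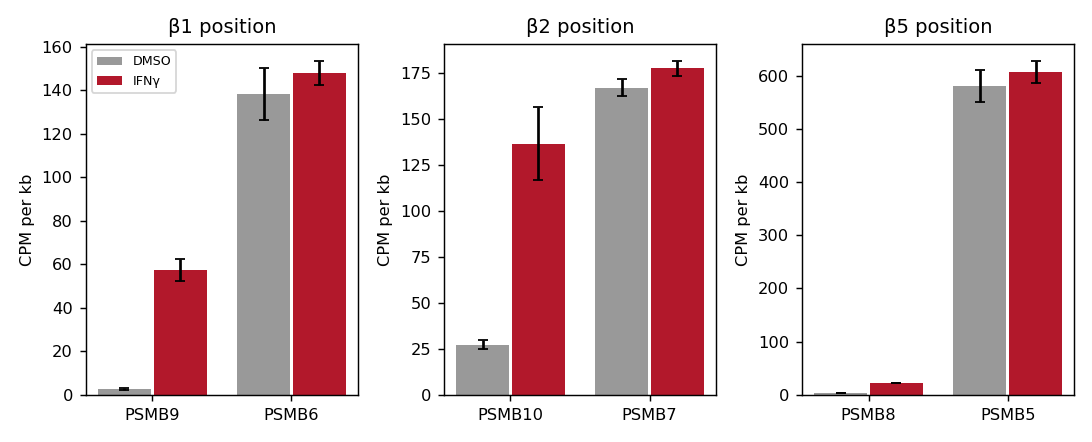
Bars give the mean level in CPM per kilobase of the longest annotated transcript for the immunoproteasome subunit and its constitutive counterpart at each catalytic place, with SD over 3 libraries as error bars. PSMB9 reaches 57.4 with IFNγ beside 148.0 for PSMB6, PSMB10 reaches 136.4 beside 177.3 for PSMB7, and PSMB8 reaches 22.7 beside 607.0 for PSMB5. Levels of different genes compare only as far as the transcript lengths used are the right ones.

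Class II presentation was hardly measurable. Of 17 listed genes 5 were tested and 7 had no read in the 6 libraries. CTSS, a protease that trims the class II invariant chain, had 1, 4 and 5 reads with DMSO and 62, 47 and 57 with IFNγ, a log2 fold change of 4.22 ± 0.34. CD74, the invariant chain, rose by 0.63 ± 0.14, a call that was lost without the library DMSO replicate 3 or IFNγ replicate 2. The class II transactivator CIITA was too low to test, with 0 reads in the DMSO libraries and 3, 8 and 4 with IFNγ, at least 1.96-fold above the floor. The regulators RFX5, RFXANK and RFXAP had log2 fold changes of 0.13, 0.15 and -0.46 with adjusted p-values of at least 0.427.

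All 9 tested genes of the guanylate-binding protein and APOL list rose past both thresholds, with a median of 3.51, also where GBP4 and GBP5 were set at their bounds. The other 5 listed genes were too low to test, 4 of them with no read in the 6 libraries. GBP1, GBP4, GBP5 and APOL4 were so low with DMSO that they passed the count filter only through the IFNγ libraries. The share that rose is therefore partly set by the filter. GBP1 went from 1, 4 and 6 reads to 81, 91 and 116, APOL6 from 68.9 ± 7.96 to 532.9 ± 16.2 CPM (SD, n = 3 each), and the trypanolytic factor APOL1 rose by 1.70 ± 0.11 on the log2 scale. GBP3, too low to test, had 0, 1 and 0 reads with DMSO and 8, 7 and 12 with IFNγ.

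Of 44 tested antiviral interferon-stimulated genes 41 rose, 24 of them past both thresholds, with a median log2 fold change of 1.54. Another 12 listed genes were not tested, and EPSTI1, without a read with DMSO, passed the count filter only through the IFNγ libraries. Members and lists were chosen with earlier results of these data known, so the share describes these members and is not a separate test of the class. The antiviral ubiquitin ligase TRIM22 rose by 4.68 ± 0.24, and IFIT3, which binds foreign RNA with its relatives, went from 9, 7 and 23 reads to 158, 146 and 138. The GTPases MX1 and MX2 differed in size, with 2.72 ± 0.37 and 0.56 ± 0.14. The RNA sensors IFIH1 and DDX58 rose by 2.29 ± 0.49 and 0.87 ± 0.19. OAS3 and OAS1, relatives of OAS2, rose by 1.69 ± 0.18 and 1.51 ± 0.15. The 3 tested genes that did not pass were CMTR1 at 0.30, SP140L at 0.20 and ZC3HAV1 at 0.32. All 5 interferon-linked PARP genes rose, from PARP14 at 2.82 ± 0.10 to PARP12 at 1.26 ± 0.13. In the ubiquitin-like system 7 of 9 rose, among them UBE2L6, the E2 enzyme for ISG15, at 3.65 ± 0.10, the ubiquitin-like protein UBD (FAT10) at 3.49 ± 0.09, and ISG15 itself at 1.74 ± 0.11. UBA7, the E1 enzyme for ISG15, had a log2 fold change of 0.22 (adjusted p = 0.684). No tested member of the class I, class II, immunoproteasome, guanylate-binding, antiviral, PARP, ubiquitin-like or regulatory factor lists fell in edgeR or in DESeq2, and none was lower at an unadjusted p under 0.05.

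**Figure D4:**
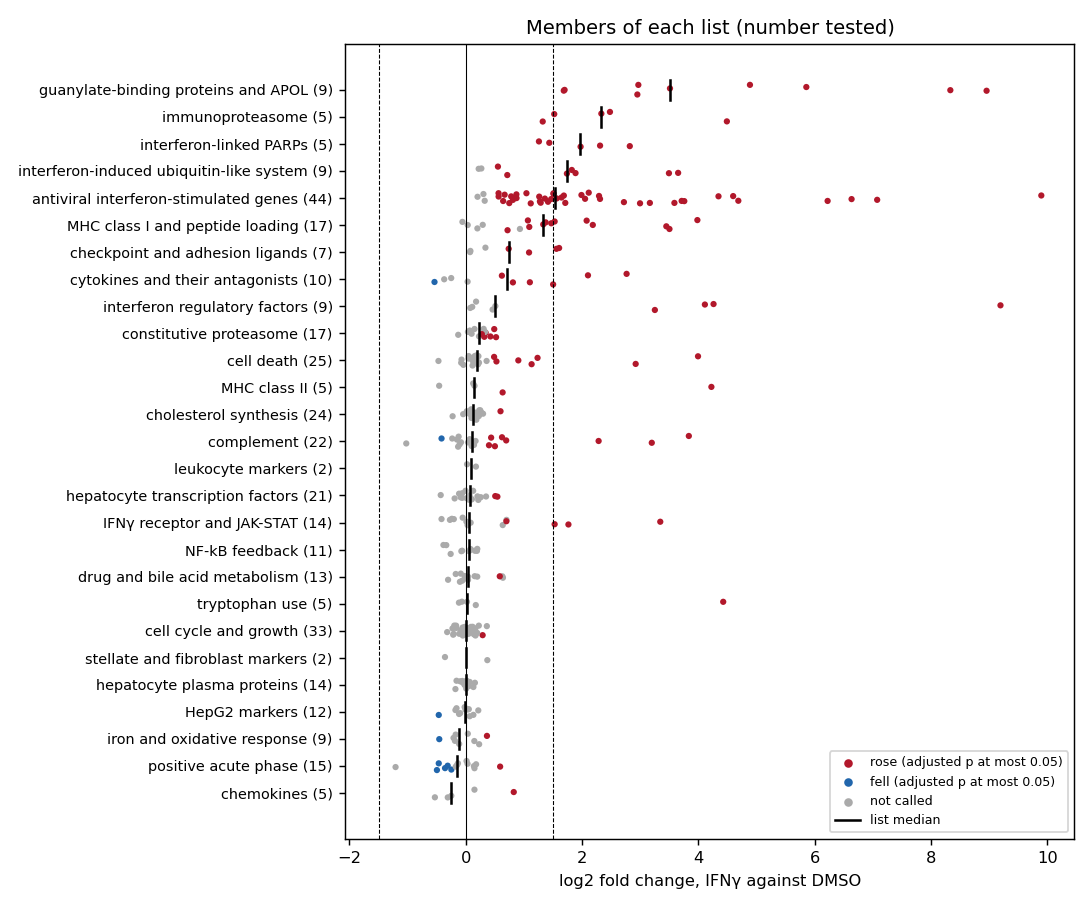
Each point is a tested gene placed by its log2 fold change of IFNγ against DMSO, in rows by list with the number of tested members in parentheses. Red points rose and blue points fell at an adjusted p of at most 0.05, grey points were not called, and the black bars mark list medians, which run from 3.51 for the guanylate-binding and APOL genes down to -0.25 for the chemokines.

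WARS, the tryptophanyl-tRNA synthetase, had the smallest adjusted p of the comparison (1.03e-31) and went from 45.8, 50.8 and 57.9 CPM to 1048, 1186 and 1096 CPM, a log2 fold change of 4.42 ± 0.09. It was the only 1 of 5 tested genes of tryptophan use that rose, with QPRT, KYNU, HAAO and AFMID at 0.02, -0.12, 0.17 and -0.07. Of 5 tested chemokines only CXCL16 rose, by 0.82 ± 0.16. The T cell chemokine CXCL10 was too low to test, with 0 reads with DMSO and 9, 7 and 4 with IFNγ, at least 2.58-fold above the floor. Of 10 tested cytokine genes 6 rose, with IL18BP, the secreted antagonist of IL-18, at 2.76 ± 0.21, IL15RA at 2.10 ± 0.46 and CSF1 at 1.501 ± 0.19, and the receptor IL1R1 fell by 0.54 on the log2 scale. Of 7 tested checkpoint and adhesion ligands 4 rose, with CD40 at 1.60 ± 0.20, ICAM1 at 1.56 ± 0.10, CD47 at 1.09 ± 0.25 and CEACAM1 at 0.74 ± 0.13. CD274 (PD-L1) was too low to test at 0, 1 and 1 reads with DMSO and 10, 12 and 8 with IFNγ, a ratio of 17.5 with a 95% counting interval of 4.44 to 151.2. LGALS9 had 2, 0 and 0 reads and then 8, 12 and 20, a ratio of 23.3 with an interval of 6.05 to 199.4.

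Among liver genes the early complement proteases rose while most other secreted proteins did not pass the test. C1R went from 3.50, 5.15 and 5.53 CPM to 66.3, 66.3 and 73.0 CPM (3.83 ± 0.17 on the log2 scale), its partner C1S rose by 2.28 ± 0.11, and their inhibitor SERPING1 by 3.20 ± 0.41. C3, C2 and CFB rose by 0.50 ± 0.08, 0.62 ± 0.10 and 0.44 ± 0.08. Of 22 tested complement genes 8 rose and C5 fell by 0.42, and the C5 call was lost without DMSO replicate 1, DMSO replicate 2, IFNγ replicate 1 or IFNγ replicate 3. None of 14 hepatocyte plasma proteins was called in edgeR or DESeq2, with 2 higher and 1 lower at an unadjusted p under 0.05 and log2 fold changes between -0.18 and 0.16. Of 15 tested genes of the positive acute phase list, most but not all of them for proteins that human liver raises in inflammation, 5 fell and 1 rose. The fibrinogen chains FGG, FGB and FGA fell by 0.50, 0.47 and 0.25, SERPINA3 by 0.36 and HP by 0.31 on the log2 scale, while A2M rose by 0.59 ± 0.06. FGG was at 1277, 1391 and 1364 CPM with DMSO and 1043, 961.0 and 853.3 CPM with IFNγ. Without DMSO replicate 2, IFNγ replicate 2 or IFNγ replicate 3 only 2 of the 5 decreases remained called. Of 21 hepatocyte transcription factors 2 rose, CEBPD by 0.54 ± 0.14 and CEBPB by 0.51 ± 0.10, and HNF4A stood at 0.05. DESeq2 called 1 of these factors, and 2.76% of all tested genes rose.

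The counts of growth, stress and metabolic genes are to be read against the 2.76% of all tested genes that rose. Of 33 tested cell cycle genes 1 rose in edgeR, a share near that background, MCM2 by 0.29 ± 0.08, and DESeq2 called 2, with MYC at 0.09 and CDKN1A at -0.20 (adjusted p 0.743 and 0.363). None of 11 genes of NF-κB feedback was called by edgeR or DESeq2, and none had an unadjusted p under 0.05. Of 25 tested cell death genes 7 rose, and leaving out DMSO replicate 2 or DMSO replicate 3 lowered this to 4. They were CASP1, the inflammatory caspase, at 3.99 ± 0.44, the pore-forming gasdermins GSDMB at 2.92 ± 0.39 and GSDMD at 0.90 ± 0.25, MLKL, which carries out necroptosis, at 1.23 ± 0.21, CASP4 at 1.13 ± 0.12, BAK1 at 0.53 ± 0.14 and RIPK2 at 0.49 ± 0.14. Of 24 cholesterol synthesis genes 1 rose (STARD4, 0.60 ± 0.13), as did 1 of 13 genes of drug and bile acid metabolism (SULT2A1, 0.58 ± 0.10), and a single call in lists of this size is near the background share. In the iron and oxidative list of 9 tested genes, SOD2 rose by 0.36 ± 0.08 and the iron exporter SLC40A1 fell by 0.46, a call lost without DMSO replicate 1, DMSO replicate 3, IFNγ replicate 2 or IFNγ replicate 3.

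The 3 downregulated genes were low. CD36, a fatty acid receptor, had 11, 12 and 13 reads with DMSO and 3, 3 and 3 with IFNγ. BHMT, which remakes methionine from homocysteine, had 15, 22 and 22 and then 8, 2 and 5, and ITIH1, a heavy chain of the inter-alpha-trypsin inhibitor, had 12, 18 and 12 and then 3, 3 and 5. Their log2 fold changes were -1.74 ± 0.50, -1.73 ± 0.42 and -1.68 ± 0.47 with adjusted p-values of 0.0427, 0.00883 and 0.0336 (edgeR), while DESeq2 called 0 genes down past both thresholds and 30 by adjusted p alone. The calls of CD36 and ITIH1 were lost whichever single library was left out, and that of BHMT was lost without DMSO replicate 3 or IFNγ replicate 2.

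Of the 92 upregulated genes 88 were protein coding, 2 were lncRNAs and 2 were transcribed pseudogenes. The DElncRNAs, out of 382 lncRNAs tested, were USP30-AS1, with 0, 2 and 0 reads with DMSO and 11, 11 and 16 with IFNγ, and PSMB8-AS1, with 2, 7 and 6 and then 66, 67 and 55. Among all genes tested 0.82% were upregulated past both thresholds, so lncRNAs were not called more often than genes in general. The counting used strand. In the GENCODE gene annotation PSMB8-AS1 (GRCh38, chromosome 6, 32844078 to 32846500, plus strand) overlaps the span of PSMB9 (32844136 to 32859851) on the same strand. The RefSeq promoter window of PSMB9, 32853942 to 32854241, lies past the end of PSMB8-AS1. The annotation used for counting is not known, so whether the 2 genes shared reads cannot be told. Of the 92 genes 70 were in a list and 22 in none. Apart from RARRES3, TCAF2 and USP30-AS1, the genes in none included TGM2, tissue transglutaminase, which went from 16.8 ± 1.09 to 169.7 ± 15.7 CPM (SD, n = 3 each), and was named after its values were seen.

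Some of the upregulated genes were neighbours. Of 91 with a position, 30 had another upregulated gene within 100 kb, in 10 groups, which is 33.0%. The same rule put 90.1% of the 11105 tested genes with a position in groups, a set so much denser along the genome that the shares are not comparable. On chromosome 6 (GRCh38, 32821833 to 32859851) TAP2, PSMB8, PSMB8-AS1, PSMB9 and TAP1 were all 5 genes tested within the span, and on chromosome 22 (36140329 to 36267530) APOL3, APOL4, APOL2 and APOL1 were all 4. The same held for GBP1, GBP2, GBP4 and GBP5 on chromosome 1 (89051882 to 89272860) and for OAS1, OAS3 and OAS2 on chromosome 12 (112905856 to 113011723). In the IFIT group on chromosome 10 (89327307 to 89421605) IFIT3, IFIT1 and IFIT5 rose past both thresholds and LIPA, a lysosomal lipase gene in the span, did not. Nor did C1RL and LPCAT3 in the span of C1S and C1R, or IPO4 and RNF31 in that of PSME2, IRF9 and REC8. Each span is bounded by upregulated genes, so tested genes just outside it do not enter these counts. With a limit of 50 kb there were 29 genes in 10 groups.

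The response was measured again in libraries that share none with the comparison above, as IFNγ with an inhibitor against the inhibitor alone, in a model of all 24 libraries and 11676 genes. With ABBV-075 50 nM 95 genes were up (0.814%) and 2 down (0.0171%), and 65 of the 92 genes were among the 95. The log2 fold change was above 0 for 91 of the 92, with NUGGC as the exception, and the median over the 92 was 2.57. IRF1 was at 13.9 ± 2.52 CPM with ABBV-075 and 223.8 ± 16.8 CPM with IFNγ and ABBV-075 (SD, n = 3 each). With ABBV-744 50 nM 598 genes were up (5.12%) and 50 down (0.428%), 63 of the 92 among those up, and with ABBV-744 500 nM 252 (2.16%) and 24 (0.206%), 71 of the 92 among those up. All 92 genes had log2 fold changes above 0 with either dose. None of the 3 downregulated genes was called down with any of the 3 treatments in edgeR, by both thresholds or by the adjusted p alone.

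The ABBV-744 counts move with the base composition of the libraries. The deviation of log2 CPM from the mean of the 24 libraries correlated with GC content over 11546 genes at r = 0.261 to 0.656 in the ABBV-744 libraries and at -0.592 to -0.224 in those with IFNγ added, while r was 0.0659 to 0.276 with DMSO and 0.121 to 0.430 with IFNγ alone. With ABBV-075 r was -0.492 to 0.149, and -0.433 to -0.0815 with IFNγ added, so the ABBV-075 libraries also differed in this trend. These are correlations across genes, which are not independent replicates. A correction for GC content, chosen after these values were seen, lowered the 598 genes to 122 and the 252 to 111, and brought 74 and 75 of the 92 among them. Corrected for GC content, IFNγ against DMSO had 88 genes up and 2 down, and the response with ABBV-075 had 98 up and 2 down.

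The difference of the response with and without ABBV-075 passed both thresholds in 0 genes upward (0%) and 2 downward (0.0171%), both of them among the 92. The edgeR test gave 261 higher and 693 lower differences at an unadjusted p under 0.05, and DESeq2 called 0 genes in either direction, so both lower calls rest on edgeR. IL18BP was at 4.67 ± 1.14 CPM with DMSO, 32.0 ± 5.41 with IFNγ, 8.13 ± 1.46 with ABBV-075 and 8.71 ± 1.96 with both (SD, n = 3 each), a difference of -2.67 ± 0.37 on the log2 scale (SE; adjusted p = 0.00043). C1S was at 25.8 ± 0.77, 125.8 ± 8.79, 11.6 ± 2.07 and 17.9 ± 1.78 CPM in the same order, a difference of -1.65 ± 0.20 (adjusted p = 4.30e-05). Neither was particular to ABBV-075. With ABBV-744 at 50 and 500 nM the IL18BP differences also passed both thresholds, at -1.93 and -1.94 (-1.42 and -1.54 after the GC correction). Those of C1S were -0.95 and -1.02, below the fold threshold (edgeR, adjusted p = 0.00012 and 0.00036). IFITM1 had 50, 37 and 32 reads with IFNγ and 2, 1 and 1 with IFNγ and ABBV-075, but with 1 read in each control group its difference did not pass (adjusted p = 0.584). With ABBV-744 the differences numbered 715 higher (6.12%) and 70 lower (0.6%) at 50 nM and 322 (2.76%) and 30 (0.257%) at 500 nM, and 47 and 47, and 27 and 22, after the correction for GC content.

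**Figure D5:**
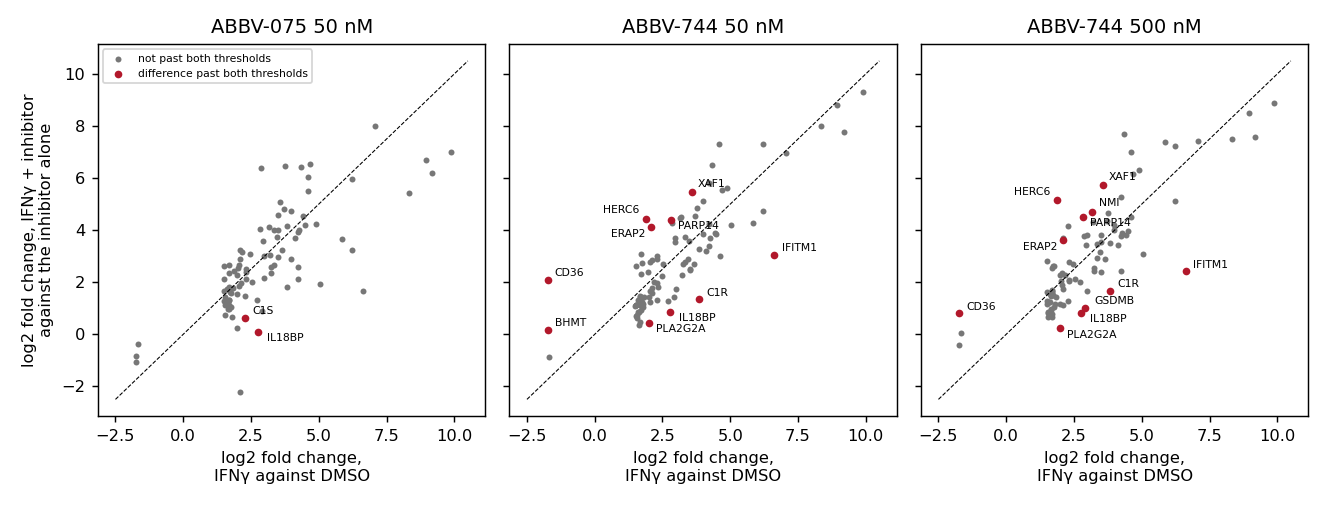
Each point is 1 of the 95 genes past both thresholds, with the log2 fold change of IFNγ against DMSO on the x axis and that of IFNγ with an inhibitor against the inhibitor alone on the y axis, in 1 panel for each inhibitor treatment, and the dashed line marks equal values. Red points are genes whose difference passed both thresholds, which with ABBV-075 are IL18BP and C1S alone. In that panel NUGGC, at -2.21, is the only upregulated gene below 0 on the y axis. Other points also lie far below the line there, among them IFITM1 at 6.63 on the x axis and 1.65 on the y axis.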

How the data were processed

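RNA was sequenced from HepG2 cells in 24 libraries, 3 in each of 8 groups, and groups were taken from the sample titles. Per the submitters' processing notes, the tools were CASAVA 1.8.2, Trimmomatic 0.33, STAR 2.7.1 and DESeq2 with build hg38. The authors deposited raw read counts per gene symbol for each library, with columns for the 2 strands alone and combined. The annotation used for counting is not given in the sources used here. The tests used the column that counts reads sense to the gene, which held 98.4% of stranded reads on genes in the 6 libraries. The 4 leading entries that name no gene were left out of library sizes and tests. Of the reads of these 6 libraries, 56.0% to 66.4% mapped to several places and 17.5% to 24.0% to no gene.

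Genes were filtered with filterByExpr, which kept 11217 of 26475, scaled by TMM and tested with edgeR 4.0.16 (glmQLFit and glmQLFTest, R 4.3.3) on the 6 libraries. Values with ± beside a log2 fold change are SE, and p-values were adjusted by Benjamini-Hochberg over all genes tested. CPM used TMM library sizes per 1000000 reads. The inhibitor treatments and the differences of response were fitted in 1 model of all 24 libraries. The alternatives were RLE and library size scaling, DESeq2 1.42.0, other count filters, both strands together, a GC correction, a replicate block, each library left out and all 24 libraries in the fit. The script was tested on simulated data.

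Genes were named by a rule. It takes the 10 largest increases and the 10 largest decreases past both thresholds that do not overlap between groups and average 1 or more log2 CPM, up to 5 lncRNAs, members of 28 gene lists, and IRF1, TAP1 and PSMB9. Members and lists were chosen with earlier results of these data known. Symbols were matched to the GENCODE gene annotation for position, class, transcript length and GC content, directly or through an older symbol or synonym. For 850 symbols only a class from RefSeq was found, and 212 of 26475 matched none. Promoters were those of RefSeq (GRCh38.p14). Counting intervals are exact 95% intervals of the ratio of summed counts, and intervals and floors cover counting error only, since reads carry no molecular identifiers. Results that needed items withheld for evaluation are not reported here.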

Additional observations from a re-analysis of the deposited data

Results flagged for a closer look

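The response to IFNγ was compared with and without each inhibitor by an interaction term in the model of 24 libraries (edgeR). With ABBV-075 50 nM the difference passed both thresholds in 0 genes upward and 2 downward, C1S at -1.65 (-1.56 after the GC correction) and IL18BP at -2.67 (-2.56 after it) on the log2 scale. With ABBV-744 50 nM it passed in 715 genes upward and 70 downward, and with ABBV-744 500 nM in 322 and 30. After the GC correction these were 47 and 47 at 50 nM and 27 and 22 at 500 nM.

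Of the genes named by the rule, IFITM1 had a difference of -3.54 with ABBV-744 50 nM (-3.04 after the GC correction, adjusted p = 0.123) and of -4.18 with 500 nM (-3.80, adjusted p = 0.0439). It had 0, 1 and 0 reads with DMSO. CD36 had a difference of 3.83 with 50 nM (2.44 after the correction) and of 2.54 with 500 nM (1.52, adjusted p = 0.238), and BHMT of 1.91 with 50 nM (1.76, adjusted p = 0.0195). The calls of CD36, BHMT and ITIH1 in IFNγ against DMSO were lost when single libraries were left out.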

How the results depend on the processing

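The direction of IFNγ against DMSO was the same under every alternative for all 162 single genes followed, and 130 of them also kept their side of the threshold. The 92 upregulated genes past both thresholds became 56 when each library had to hold at least 10 counts, and 84 to 112 otherwise (87 to 98 with 1 library left out). Of the 92 genes 82 to 89 were still among them whichever library was left out. The 3 downregulated genes became 0 with DESeq2, 5 without a filter, 0 at 10 counts, 1 with a replicate block and 1 with all 24 libraries in the fit (0 to 4 with 1 library left out). By adjusted p alone, the 78 decreases became 204 by library size, 30 with DESeq2, 39 with the replicate block, 127 with the GC correction and 22 with all 24 libraries in the fit. They were 34 to 148 with 1 library left out, 35 without DMSO replicate 2, 34 without DMSO replicate 3, 148 without IFNγ replicate 1 and 46 without IFNγ replicate 3, and the 310 increases were 236 to 401. The cause was not tested.

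Same-numbered libraries did not deviate together (r = -0.136, -0.0302 and -0.045 across genes), so the numbers were not taken as pairs. With the replicate block 90 genes were up and 1 down past both thresholds.

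With ABBV-075 50 nM the 2 decreases became 1 with DESeq2 and 4 without a filter (0 to 3 with 1 library left out). The 0 higher differences became 4 without a filter, 2 with the replicate block and 3 with the GC correction (0 to 5), and the 2 lower ones 0 with DESeq2 and 4 without a filter (2 to 5). With ABBV-744 50 nM the 598 increases became 122 with the GC correction (370 to 830), the 50 decreases 96 without a filter (54 to 79), the 715 higher differences 47 with the GC correction (451 to 939) and the 70 lower ones 45 with DESeq2 (72 to 105). With ABBV-744 500 nM the 252 increases became 111 with the GC correction (182 to 361), the 24 decreases 40 without a filter (24 to 48), the 322 higher differences 27 with the GC correction (179 to 425) and the 30 lower ones 16 with DESeq2 (25 to 50). The GC correction and the left-out libraries of this model were chosen after seeing the data. CXCL10 and CIITA were too low to test at this depth, and low expression and depth cannot be told apart there.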
